A study of Homo sapiens with 6 samples.

Results

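The promoters of 10 Kruppel-like factor genes (KLF2, KLF3, KLF4, KLF5, KLF6, KLF7, KLF9, KLF10, KLF11 and KLF13) were examined for DNA recovered with NuMA by chromatin immunoprecipitation and sequencing (ChIP-seq). They were taken as the rows of the deposited promoter count table that were assigned any of these symbols by position. This gave 1 window per gene, 10 of 19957 windows in all. NuMA, also called TDIF by the submitters, is a large nuclear protein best known as an organiser of the mitotic spindle poles. All libraries came from wild-type MRC5, a human lung fibroblast line, and every group shares that genotype. The groups were NuMA ChIP (2 libraries), ChIP with immunoglobulin G as the control pull-down (IgG ChIP, 2 libraries), 1 input library of sheared chromatin from the NuMA arm and 1 from the IgG arm. The series design states that the ChIP part assesses where NuMA binds in the genome. ChIP counts measure recovered DNA and not expression, so the labelled cell type could not be checked against marker genes here.

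Kruppel-like factors are transcription factors with zinc fingers at the carboxy terminus that bind GC-rich and CACCC sequences, and they are close relatives of the SP family. The amino-terminal part differs between members and sets their partners: some recruit acetyltransferases and mostly activate, KLF3 recruits the corepressor CtBP, and KLF9, KLF10, KLF11 and KLF13 can recruit the SIN3 corepressor complex. Several are early response genes whose transcripts rise quickly after serum, growth factors, TGF-beta or stress. In fibroblasts and vessel walls, family members are known for roles in proliferation, matrix production and quiescence.

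Each window extends 1000 bp upstream and downstream of an annotated start site on build hg38. Sequences upstream of the start are shown for 4 members, chosen to span the range of ChIP values found here. KLF13 and KLF6 had more NuMA than IgG signal, and KLF9 showed no clear difference. KLF5 had almost no NuMA reads and few reads in every other library, inputs included. Each is the 250 bases before the RefSeq start on GRCh38.p14, read 5′ to 3′ on the gene's strand, and capitals mark CpG dinucleotides. The KLF13 stretch lies at chr15:31326585-31326834 on the plus strand and KLF6 at chr10:3785210-3785459 on the minus strand. KLF9 lies at chr9:70414658-70414907 on the minus strand and KLF5 at chr13:73054726-73054975 on the plus strand.
KLF13: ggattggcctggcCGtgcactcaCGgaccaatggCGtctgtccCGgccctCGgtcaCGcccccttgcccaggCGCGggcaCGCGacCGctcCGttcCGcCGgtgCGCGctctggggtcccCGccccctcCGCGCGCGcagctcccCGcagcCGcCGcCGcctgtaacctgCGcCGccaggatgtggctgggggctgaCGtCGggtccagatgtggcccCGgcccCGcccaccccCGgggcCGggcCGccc
KLF6: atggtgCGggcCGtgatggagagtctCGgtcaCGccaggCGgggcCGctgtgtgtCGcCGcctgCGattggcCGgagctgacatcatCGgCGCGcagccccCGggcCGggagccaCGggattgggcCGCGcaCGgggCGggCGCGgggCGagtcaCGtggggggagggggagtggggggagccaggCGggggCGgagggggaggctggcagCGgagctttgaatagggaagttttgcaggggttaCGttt
KLF9: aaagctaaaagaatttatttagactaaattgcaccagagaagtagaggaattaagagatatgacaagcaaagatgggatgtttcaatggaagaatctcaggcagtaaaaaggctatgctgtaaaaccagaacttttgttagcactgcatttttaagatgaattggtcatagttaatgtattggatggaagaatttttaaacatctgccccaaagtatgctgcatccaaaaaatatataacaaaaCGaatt
KLF5: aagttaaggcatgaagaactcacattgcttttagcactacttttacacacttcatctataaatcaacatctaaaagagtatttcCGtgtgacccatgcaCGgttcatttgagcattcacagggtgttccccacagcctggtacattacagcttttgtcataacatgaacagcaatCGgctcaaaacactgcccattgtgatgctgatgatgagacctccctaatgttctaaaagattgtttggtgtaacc
The KLF13 stretch holds 34 CpG and has a GC content of 78.8%, and the KLF6 stretch holds 28 CpG with 72.4% GC. In contrast, the KLF9 stretch holds 1 CpG with 32.4% GC, and the KLF5 stretch holds 3 CpG with 40.8% GC.

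Total promoter counts ranged from 366594 in IgG ChIP replicate 2 to 1080879 in NuMA ChIP replicate 1. Levels are given as scaled CPM, the share of a library after scaling with the trimmed mean of M values (TMM), in which 1 count equals 1.13 to 2.45 depending on the library. The median window stood at 28.4 and 35.5 scaled CPM with the NuMA antibody, at 44.0 and 44.2 with IgG, and at 42.4 and 43.0 for input chromatin. Because all windows are equally long, levels need no correction for length between genes. They are not corrected for input, which ran from 10.2 and 14.1 scaled CPM at KLF5 to 105 and 118 at KLF10. The labels do not say that replicates came from separate cultures, so p-values measure the spread between these libraries, which may be technical. A window passed when its adjusted p was under 0.05 in edgeR's quasi-likelihood test, with Benjamini-Hochberg adjustment over all windows tested.

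Against IgG, 4 of 9 tested KLF promoters were higher in NuMA ChIP (KLF3, KLF13, KLF6 and KLF10), none was lower, and 5 did not pass. KLF3 and KLF13 stood highest, at 3.85-fold and 3.77-fold, while KLF7 and KLF9 each had a log2 fold change of -0.15 and did not pass. The background over all 15727 windows tested was 16.8% higher and 23.9% lower. The count of 4 was 1 without IgG ChIP replicate 2 and 7 with scaling on signal far from the transcription start, where all-window calls moved from 2640 higher and 3761 lower to 7562 and 429. The median log2 fold change was 0.91 over the 9 KLF promoters and -0.04 over all windows tested, whose quartiles lay at -1.40 and 0.82. The members were chosen with earlier results of these data known, so this contrast is a description only. Of 7 other KLF genes tested, 3 were higher and 3 lower. For the count of 0 lower, edgeR gave 0 KLF promoters at an unadjusted p under 0.05, and DESeq2 gave 0 adjusted and 0 unadjusted. KLF5 held too few counts to be tested in this comparison.

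**Figure D1:**
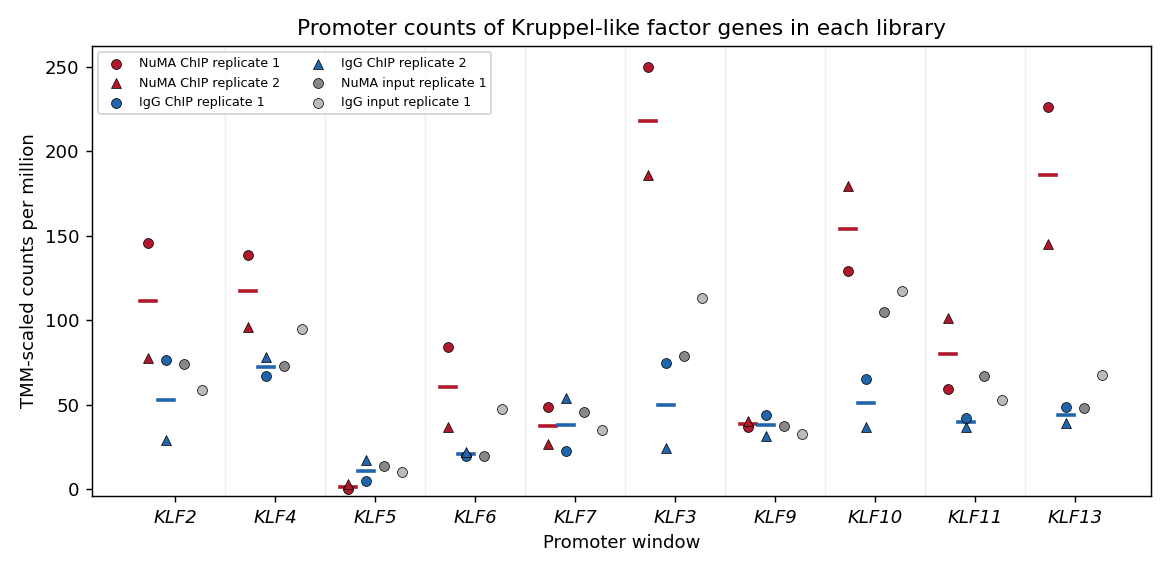
Level of each KLF promoter in every library, in scaled CPM on the vertical axis, with NuMA ChIP, IgG ChIP and input libraries as separate points. KLF3 reached 249.8 and 186 in NuMA ChIP against 75.02 and 24.5 in IgG ChIP, whereas the points of KLF7 and KLF9 overlap.

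The plot of levels by library shows that 7 of the 9 tested promoters had both NuMA libraries above both IgG libraries, a pattern seen in 40.5% of all windows tested. KLF7 and KLF9 overlapped between the groups. KLF5 was the single member with both NuMA libraries below both IgG libraries; it is not among the windows tested, of which 34.9% showed that pattern. In order of mean NuMA level, KLF3 (217.9 scaled CPM) was followed by KLF13, KLF10, KLF4, KLF2, KLF11, KLF6, KLF9, KLF7 and KLF5 (1.69). Each neighbouring pair in that order overlapped between its replicates, except KLF7 and KLF5. In IgG ChIP the order began with KLF4 (72.7 ± 8.26, SD, n = 2) and ended with KLF6 (20.8 ± 1.78) and KLF5 (11.04 ± 8.69).

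Among the members known mainly as activators, KLF6, a widely expressed factor induced by tissue injury and described as a tumour suppressor, was the one that passed. Its window (ENSG00000067082, chr10:3784282-3786282, minus strand) held 71 and 22 counts in NuMA ChIP (replicate 1, then replicate 2, as for all members), 12 and 9 in IgG ChIP, with 17 and 42 in the NuMA and IgG inputs. The 2 NuMA values exceeded those of both IgG libraries, but the IgG input lay between the NuMA replicates. The level was 60.6 ± 33.1 scaled CPM in NuMA ChIP against 20.8 ± 1.78 in IgG ChIP (SD, n = 2 each). Its log2 fold change was 1.41 (SE 0.56, edgeR adjusted p = 0.0373), above 91.6% of windows. The call was lost in 6 of its 11 alternatives: without NuMA ChIP replicate 1 (0.66, edgeR adjusted p = 0.698), IgG ChIP replicate 1 (1.44, 0.0766) or IgG ChIP replicate 2 (1.63, 0.0525), with DESeq2 (1.46, 0.143), with total-count scaling (1.20, 0.112) and in the test above 1.5-fold (0.081).

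KLF2 maintains endothelial quiescence and responds to shear stress. At its window (ENSG00000127528, chr19:16323816-16325816, plus strand) NuMA ChIP gave 123 and 46 counts, IgG ChIP 47 and 12, and the NuMA and IgG inputs 63 and 52. On the scaled level the lower NuMA library (77.8) was barely above the higher IgG library (76.7). The log2 fold change was 0.91 (SE 0.41) and did not pass (edgeR adjusted p = 0.0639). Leaving out IgG ChIP replicate 1 raised it to 1.90 (edgeR adjusted p = 0.0061), and leaving out NuMA ChIP replicate 2 gave 1.34 (edgeR adjusted p = 0.0246). Leaving out IgG ChIP replicate 2 lowered it to 0.54 (edgeR adjusted p = 0.396), and leaving out NuMA ChIP replicate 1 to 0.36 (edgeR adjusted p = 0.681).

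KLF4, one of the reprogramming factors for pluripotency and a regulator of differentiation, had 117 and 57 counts in NuMA ChIP, 41 and 32 in IgG ChIP, with 62 and 84 in the NuMA and IgG inputs. Its window (ENSG00000136826, chr9:107489483-107491483, minus strand) is centred 714 bp from the RefSeq start. Both NuMA libraries were above both IgG libraries, and NuMA replicate 2 (96.4 scaled CPM) was close to the IgG input (94.95). The log2 fold change of 0.54 (SE 0.40) did not pass (edgeR adjusted p = 0.26).

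KLF7, a factor known from neuronal development, had 41 and 16 counts in NuMA ChIP, 14 and 22 in IgG ChIP, with 39 and 31 in the NuMA and IgG inputs. Across its window (ENSG00000118263, chr2:207166268-207168268, minus strand) the replicates of each pull-down differed more than the groups did, with 37.8 ± 15.2 scaled CPM in NuMA ChIP and 38.4 ± 22.0 in IgG ChIP (SD, n = 2 each). The log2 fold change was -0.15 (SE 0.58, edgeR adjusted p = 0.849).

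KLF5 promotes proliferation in epithelium and vascular smooth muscle. Its window (ENSG00000102554, chr13:73053975-73055975, plus strand) held 0 and 2 counts in NuMA ChIP, 3 and 7 in IgG ChIP, with 12 and 9 in the NuMA and IgG inputs. This was the lowest level of the 10 promoters in every group, inputs included, at 10.2 and 14.1 scaled CPM in the IgG and NuMA input. Pooled over replicates, the NuMA level was 7.04-fold lower than IgG (2 against 10 counts; 95% exact interval 1.4996 to 66.1) and 8.70-fold lower than the inputs (2 against 21 counts; 2.13 to 76.5). These intervals cover counting error only. Even numbers made up 72.7% to 79.8% of counts from 6 to 10 in the 6 libraries, against 60% of the numbers themselves, so if both mates of read pairs entered the table, the intervals are too narrow. A further RefSeq start of KLF5, at position 73059005, lies 4030 bp from the centre, outside the window, and has a GC content of 71.3% around it.

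KLF3 is the member that silences genes through CtBP, and it is known from fat and blood cell differentiation. In its window (ENSG00000109787, chr4:38663195-38665195, plus strand) NuMA ChIP gave 211 and 110 counts, IgG ChIP 46 and 10, and the NuMA and IgG inputs 67 and 100. Both NuMA libraries exceeded every other library. The level was 217.9 ± 45.1 scaled CPM in NuMA ChIP and 49.8 ± 35.7 in IgG ChIP (SD, n = 2 each), and the IgG replicates differed from each other at 75.02 and 24.5. Its log2 fold change was 1.95 (SE 0.47, edgeR adjusted p = 0.0010), above 98.4% of windows. Without IgG ChIP replicate 2 it was 1.52 (edgeR adjusted p = 0.082), and without IgG ChIP replicate 1 it was 3.11 (edgeR adjusted p = 0.0017).

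Of the SIN3-interacting members, KLF13, which is known for driving the late expression of the chemokine CCL5 in T cells, showed the clearest difference. Its window (ENSG00000169926, chr15:31325854-31327854, plus strand) held 191 and 86 counts in NuMA ChIP, 30 and 16 in IgG ChIP, with 41 and 60 in the NuMA and IgG inputs. Both NuMA libraries were above all other libraries, also on the scaled level. The level was 186 ± 57.1 scaled CPM in NuMA ChIP and 44.1 ± 6.82 in IgG ChIP (SD, n = 2 each). Its log2 fold change was 1.91 (SE 0.45, edgeR adjusted p = 0.0006), above 98.2% of windows. The call held in all 12 alternatives run for this comparison, at 1.32 to 3.21.

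KLF10, the TGF-beta-inducible early gene, had 109 and 106 counts in NuMA ChIP, 40 and 15 in IgG ChIP, with 89 and 104 in the NuMA and IgG inputs. Its window (ENSG00000155090, chr8:102654903-102656903, minus strand) also had the highest input level of the 10 promoters, at 105 and 118 scaled CPM. The IgG libraries lay below both inputs, and the NuMA libraries above them. The log2 fold change against IgG was 1.40 (SE 0.42, edgeR adjusted p = 0.0062). The level was 154 ± 35.5 scaled CPM in NuMA ChIP and 51.0 ± 20.1 in IgG ChIP (SD, n = 2 each). Among its 12 alternatives, the call was lost in 2. The value was 1.22 without IgG ChIP replicate 2. It was 0.84 when every library of a group needed 30 or more counts (edgeR adjusted p = 0.0801). The 30-count setting shifted the windows tested by a median of -0.59 on the log2 scale.

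KLF11, a further TGF-beta-inducible member with a role in pancreatic beta cells, had 50 and 60 counts in NuMA ChIP, 26 and 15 in IgG ChIP, with 57 and 47 in the NuMA and IgG inputs. Its window (ENSG00000172059, chr2:10041848-10043848, plus strand) is centred 981 bp from the RefSeq start whose promoter sequence was used, so that start lies at its edge. Both NuMA libraries (59.2 and 101.4 scaled CPM) were above both IgG libraries (42.4 and 36.8), but NuMA replicate 1 was below the NuMA input (67.2). The log2 fold change of 0.83 (SE 0.43) did not pass (edgeR adjusted p = 0.112).

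KLF9 responds to glucocorticoid and thyroid hormone. Its window (ENSG00000119138, chr9:70413625-70415625, minus strand) held 31 and 24 counts in NuMA ChIP, 27 and 13 in IgG ChIP, with 32 and 29 in the NuMA and IgG inputs. All 6 libraries lay between 31.9 and 44.0 scaled CPM, the narrowest range of the 10 promoters in relative terms. The log2 fold change was -0.15 (SE 0.56, edgeR adjusted p = 0.844), fitted with scale factors from the ChIP libraries alone, while the group means were 38.6 ± 2.74 and 38.0 ± 8.57 scaled CPM (SD, n = 2 each).

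**Figure D2:**
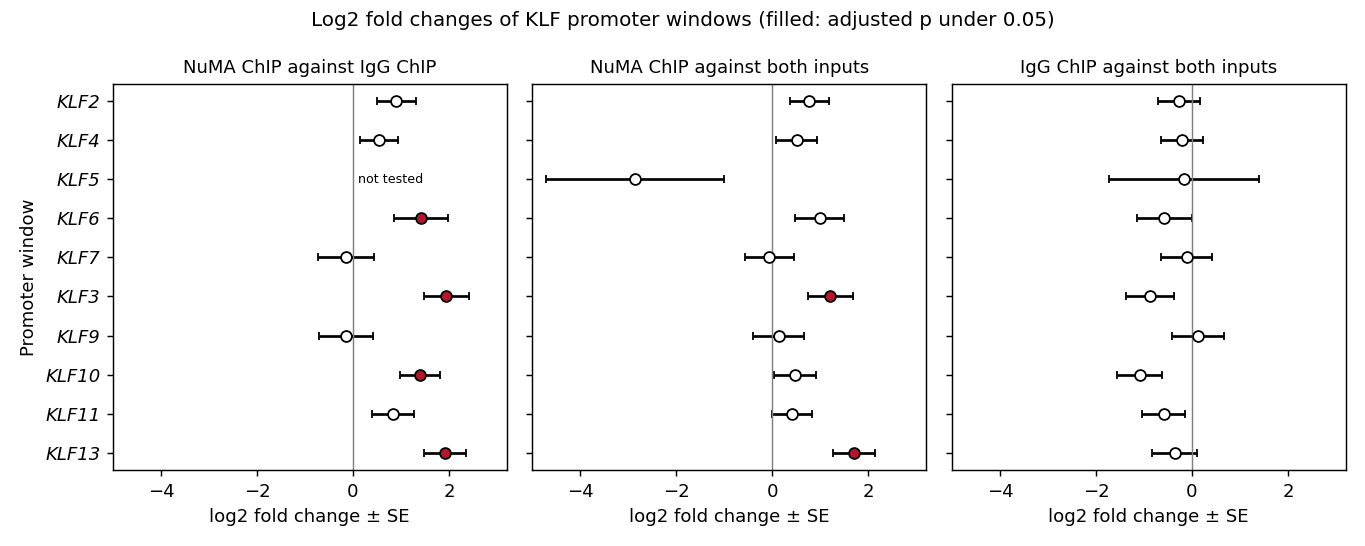
Log2 fold change of each KLF promoter with its standard error for the comparisons NuMA against IgG, NuMA against input and IgG against input. KLF13 and KLF3 lie to the right for both NuMA comparisons (1.91 and 1.70 for KLF13, 1.95 and 1.21 for KLF3), and KLF10 lies to the left for IgG against input (-1.09).

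Against the inputs, KLF13 and KLF3 were higher in NuMA ChIP, 2 of the 10 promoters, and none was lower. The background was 17.2% higher and 11.9% lower among 17226 windows. KLF13 had a log2 fold change of 1.70 (SE 0.44, edgeR adjusted p = 0.0012). KLF3 had 1.21 (SE 0.47, edgeR adjusted p = 0.0369), and this call was lost in 12 of its 13 alternatives, at 0.75 to 1.52. KLF13 no longer passed without NuMA ChIP replicate 1 (1.19, edgeR adjusted p = 0.0563) or without the NuMA input (1.45, edgeR adjusted p = 0.062). The members that passed against IgG but not here were KLF6 at 0.99 (edgeR adjusted p = 0.13) and KLF10 at 0.47 (edgeR adjusted p = 0.446). KLF2, KLF4 and KLF11 had 0.77, 0.50 and 0.41, KLF9 and KLF7 0.13 and -0.07, and none of these passed. The fitted value of KLF5 was -2.86 (SE 1.86, edgeR adjusted p = 0.246); it did not pass and, with 2 NuMA counts, depends on the prior count of the fit. For the count of 0 lower, 0 members had an unadjusted p under 0.05 in edgeR, and DESeq2 also gave 0.

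IgG ChIP against the inputs is the background measured in the same way. No KLF promoter passed in edgeR's test, where 0.238% of windows were higher and 0.0639% lower. At an unadjusted p under 0.05 edgeR gave 1 lower and 0 higher, and DESeq2 gave the same counts, with 0 after adjustment. In edgeR that promoter was KLF10, at -1.09 (SE 0.47, unadjusted p = 0.0212, edgeR adjusted p = 0.233). KLF3 stood at -0.87 (edgeR adjusted p = 0.382), KLF11 at -0.58, KLF6 at -0.57 and KLF13 at -0.36. KLF2, KLF4, KLF5 and KLF7 lay between -0.27 and -0.11, and KLF9 was the one positive value at 0.13. The median was -0.31 over the 10 KLF promoters and 0.13 over all windows. The comparisons share libraries: IgG ChIP enters those of NuMA against IgG and IgG against input, so a promoter with few IgG counts moves both. For KLF10 the 3 values were 1.40 for NuMA against IgG, 0.47 for NuMA against input and -1.09 for IgG against input.

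The inputs of the arms also differed at some KLF promoters, with KLF6 at 20.04 scaled CPM for the NuMA arm and 47.5 for the IgG arm. When each pull-down was set against its own input, KLF13 had a log2 difference of 2.55 between the arms (SE 0.79, edgeR adjusted p = 0.042) and was the 1 promoter of 10 that passed as higher, against 1.16% of windows. None passed as lower, against 2.35% of windows, and here too edgeR and DESeq2 gave 0 at an unadjusted p under 0.05. KLF6 at 2.80 (SE 0.94, edgeR adjusted p = 0.0604) and KLF3 at 2.59 (SE 0.84, edgeR adjusted p = 0.053) were larger but did not pass. KLF3 passed in 4 of its 11 alternatives and KLF6 in 2 of its 10. With 1 library for each input, the fit assumes that inputs vary as the ChIP groups do. Over the 11 alternatives for KLF13 its value stayed at 2.05 to 3.74, and in 7 of them it no longer passed.

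**Figure D3:**
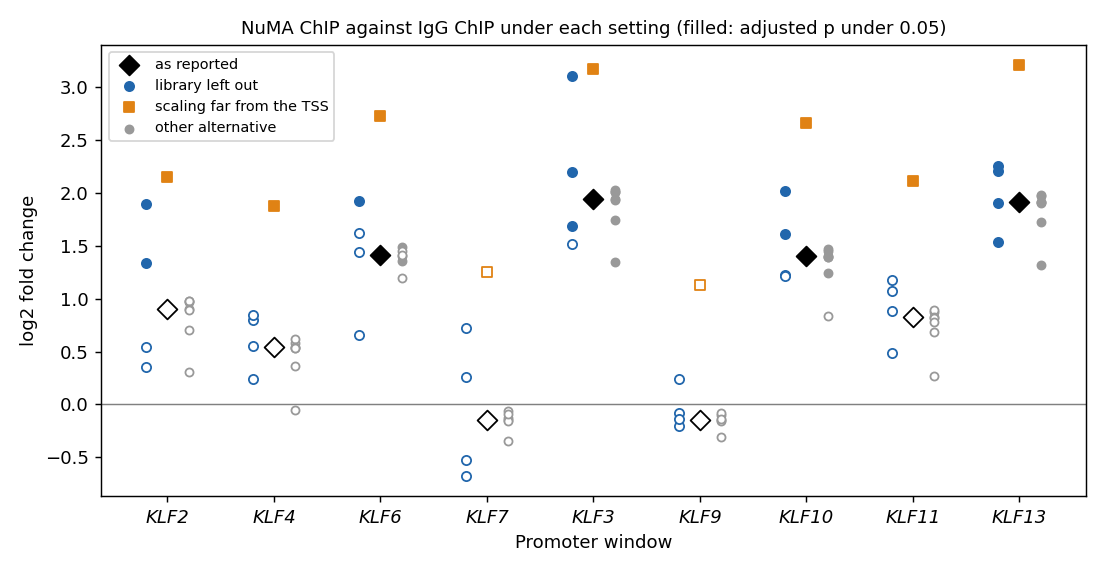
Log2 fold change of NuMA ChIP against IgG ChIP for each KLF promoter under the processing as reported and under each alternative, with a point per setting. Points of KLF13 run from 1.32 to 3.21, and scaling on signal far from the transcription start gives the highest value for each of the 9 tested promoters.

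The plot of settings includes other scalings. When libraries were scaled on the deposited signal in the positions farthest from the transcription start, the median of all windows moved up by 1.29 on the log2 scale. Of all windows that passed, 94.6% were then higher, against 41.2% with the scaling as reported. All 9 tested KLF promoters were then positive and 7 passed, KLF2 at 2.15, KLF11 at 2.12 and KLF4 at 1.87 among them. KLF7 stood at 1.26 and KLF9 at 1.13, close to the shift of all windows, and neither passed. KLF3, KLF10 and KLF13 passed against IgG with TMM, total-count and flank scaling, whereas KLF7 and KLF9 turned positive with flank scaling.

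Promoter sequence was compared with the ChIP values for the 8 members found in the RefSeq promoter table, in the 250 bases before and 50 after the start. The observed over expected CpG ratio was 1.12 in KLF11, 1.005 in KLF2, 0.99 in KLF6, 0.95 in KLF13 and 0.93 in KLF4. It was lower in KLF7 (0.51), KLF5 (0.33) and KLF9 (0.13). The 5 CpG-rich members had log2 fold changes of 0.54 to 1.91 against IgG, and the CpG-poor members KLF7 and KLF9 had -0.15 each. Within the KLF7 window a further RefSeq start, at position 207166856, has a CpG ratio of 0.82 and 70.0% GC, against 42.7% GC at the start used here. The non-coding KLF9-DT starts 435 bp from the centre of the KLF9 window, with a CpG ratio of 0.73 and 57.3% GC.

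**Figure D4:**
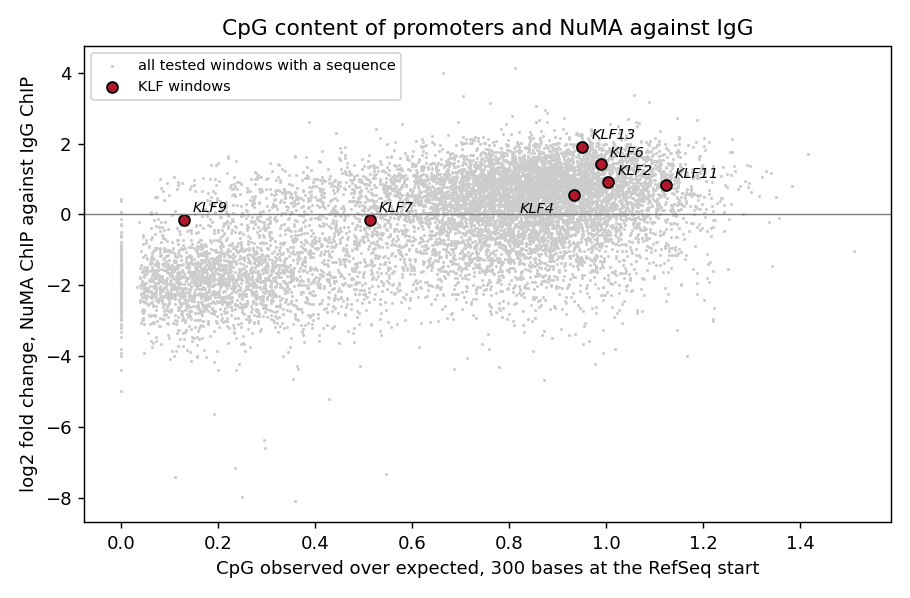
Log2 fold change of NuMA ChIP against IgG ChIP on the vertical axis against the observed over expected CpG ratio of the promoter on the horizontal axis, with all windows that have a sequence as background and KLF members labelled. The lowest quintile of windows by CpG ratio, where KLF9 lies, has a median of -1.75 and the highest quintile 0.66.

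The relation was also described over the tested windows that have a promoter sequence. Across these 10567 windows the log2 fold change against IgG and the CpG ratio had a Pearson r of 0.587 and a Spearman rho of 0.520, a description across windows that share the same 4 libraries. For IgG against input the coefficients were -0.515 and -0.502 (11492 windows), and for NuMA against input 0.222 and 0.239. In the highest quintile by CpG ratio, which holds KLF2, KLF6, KLF11 and KLF13, the median against IgG was 0.66, 29.8% of windows passed as higher and 3.88% as lower. KLF13 and KLF6 were above that median by more than their standard errors, KLF2 and KLF11 were not. In the lowest quintile the median was -1.75 and 63.2% passed as lower. Its KLF member, KLF9, placed there by the bases at its own start, stood at -0.15. The KLF9-DT start in the same window has a CpG ratio of 0.73. The part of base composition in the KLF values was not tested.

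Motifs were counted on both strands of the same 300 bases. The GC box (GGGCGG), the core sequence for SP and KLF proteins, was found in 5 of 8 members, with 6 copies in KLF2, 4 in KLF4, 3 in KLF13 and 2 each in KLF6 and KLF11, against 45.0% of 35116 promoters. The CACCC box (CACCC) was found in KLF5, KLF7 and KLF13 (59.9% of promoters) and the CCAAT box (CCAAT) in KLF6, KLF7, KLF9 and KLF13 (34.6%). KLF2, KLF4, KLF5 and KLF9 held a TATA box (TATAA; 20.4%), KLF4, KLF6 and KLF11 an E-box (CACGTG; 7.26%), and KLF7 the SRF CArG box (1.29%). No member held the CRE (TGACGTCA; 1.85%). None of the spelled-out motifs contains another, though copies can share bases, and a match to the degenerate CArG box can contain a CCAAT or TATA box. All 5 members with a GC box are those with a CpG ratio of at least 0.93.

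Genes around the KLF family were described by 6 lists, against the background of 16.8% higher and 23.9% lower. By position, 7 of the 8 other KLF genes were assigned a window. KLF12 was not, and its window may be among those left without a symbol. NuMA was higher at 3 of the 7 and lower at 3, with a median of 0.45. The highest was KLF14 at 1.90 (edgeR adjusted p = 0.0003), a single-exon gene related to KLF16, and the lowest was KLF18 at -3.08 (edgeR adjusted p = 8.1e-06). Among the SP genes 2 of 8 tested were higher and none lower, with a median of 0.42. SP5, a WNT target, was highest at 1.60 (edgeR adjusted p = 0.0087), and SP2 was lowest at -0.60 and did not pass (edgeR adjusted p = 0.23).

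The cofactors of KLF proteins had 4 of 8 tested promoters higher and none lower, with a median of 0.91. CREBBP, an acetyltransferase that coactivates several members, was highest at 2.29 (edgeR adjusted p = 5.0e-05), from 158 and 87 counts in NuMA ChIP against 27 and 6 in IgG ChIP. SIN3B, a scaffold of the SIN3 complex, was lowest at -0.31 (edgeR adjusted p = 0.661). Of the upstream regulators, 2 of 7 tested were higher and none lower, with SMAD2, the TGF-beta signal transducer, at 2.01 (edgeR adjusted p = 0.0004) and TGFBR1, its receptor, at -1.15 (edgeR adjusted p = 0.209).

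The ubiquitin ligases that act on KLF proteins had 1 of 6 higher and none lower, SMURF1 at 1.33 (edgeR adjusted p = 0.017), with VHL lowest at -0.05. Known KLF target genes went both ways, with 3 higher and 2 lower of 7 tested. PDGFA, a growth factor for fibroblasts, was highest at 2.19 (edgeR adjusted p = 0.0002), and NOS3, the endothelial nitric oxide synthase, was lowest at -2.03 (edgeR adjusted p = 0.0005). For the counts of 0 lower in these lists no test of the list was made.

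**Figure D5:**
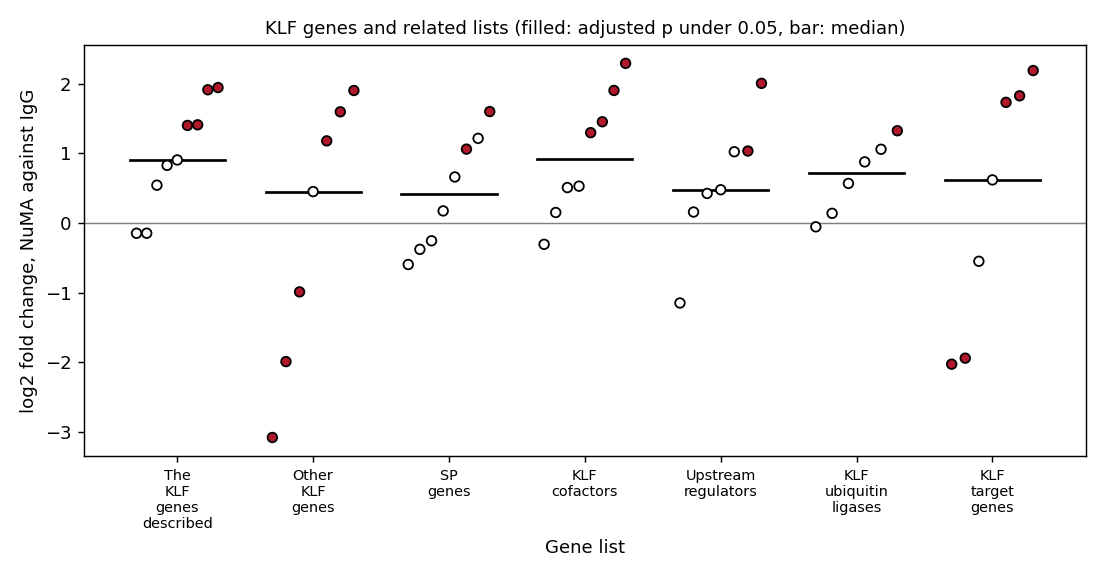
Log2 fold change of NuMA ChIP against IgG ChIP for the 9 tested KLF genes and the 6 related lists, with a point per promoter and a line at each list's median. The medians lie between 0.42 for the SP genes and 0.91 for the KLF genes and the cofactors, and the other KLF genes spread from -3.08 to 1.90.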

How the data were processed

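ChIP-seq libraries from MRC5 cells (2 NuMA ChIP, 2 IgG ChIP, 1 input per arm) were analysed from the authors' processed tables. Build hg38 and the tools featureCounts, MACS2, bedtools and BWA (0.7.17-r1188) are listed, with no role given, per the submitters' processing notes. The deposited promoter table holds raw counts per window of 2001 bp. The deposited metagene table holds signal summed over genes, unscaled for depth per the file headers and values, and was used for 1 alternative scaling (outermost 500 positions).

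The table gives Ensembl identifiers only. Symbols were assigned by position, as the nearest protein-coding RefSeq start within 1000 bp of the window centre, which named 17338 windows (86.9%) at a median distance of 33 bp. No KLF window overlaps another, although 3741 windows (18.7%) do.

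Counts were tested with edgeR 4.0.16 (limma 3.58.1, R 4.3.3): windows were kept by filterByExpr (minimum count 10), scaled by TMM and tested by quasi-likelihood, with Benjamini-Hochberg adjustment at 0.05. NuMA against IgG used the 4 ChIP libraries, and comparisons with input used all 6, each with 2 residual degrees of freedom. Standard errors are approximate: each is the absolute log2 fold change divided by the square root of the test's F statistic. Scaled CPM used factors from all 6 libraries. Fold changes of NuMA against IgG used factors from the 4 ChIP libraries, so they need not equal ratios of the scaled CPM. The fits of NuMA against IgG and against input were also run on counts simulated with the spread fitted here and planted changes. Such counts cannot test the choice of scaling. Alternatives were DESeq2 1.42.0, total-count scaling, scaling on the metagene flanks, no filter, at least 30 counts, a test above 1.5-fold, windows that overlap no other, each library left out, and a replicate block.

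All 10 members were described, ordered by role. Of each list the highest and lowest tested gene by NuMA against IgG were named. Members and lists were chosen with earlier results of these data known.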

Additional observations from a re-analysis of the deposited data

Results flagged for a closer look

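The KLF13 promoter was flagged because the NuMA and IgG arms, each ChIP set over its own input, differed by a test of the difference itself. The log2 difference was 2.55 (edgeR adjusted p = 0.042), and it stayed at 2.05 to 3.74 over its 11 alternatives, in 7 of which it no longer passed. The trait is not particular to KLF13. KLF6 at 2.80 (edgeR adjusted p = 0.0604) and KLF3 at 2.59 (edgeR adjusted p = 0.053) had larger differences that did not pass, though each passed in some alternatives. No explanation was tested.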

How the results depend on the processing

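The number of KLF promoters higher in NuMA than in IgG ChIP (4) was 7 with scaling on signal far from the transcription start, 2 with at least 30 counts, and 1 to 5 when each library was left out in turn, the 1 being without IgG ChIP replicate 2. Against input (2) it was 1 with DESeq2, total-count scaling, flank scaling, no filter, at least 30 counts, the 1.5-fold test and windows that overlap no other, and 0 to 3 when a library was left out, 0 without NuMA ChIP replicate 1 or the NuMA input. Relative to own inputs (1) it was 0 with DESeq2 and the 1.5-fold test, 2 with at least 30 counts and with non-overlapping windows, and 0 to 3 when a library was left out, 0 without IgG ChIP replicate 1, IgG ChIP replicate 2 or NuMA ChIP replicate 1. The cause was not tested. No KLF promoter passed as lower, or for IgG against input, in any alternative run.

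Signs changed only for values that did not pass. Requiring at least 30 counts shifted the windows tested for NuMA against IgG by a median of -0.59 on the log2 scale. For NuMA against IgG, flank scaling gave KLF7 1.26 and KLF9 1.13, at least 30 counts gave KLF4 -0.058, and leaving out libraries gave KLF7 -0.68 to 0.72 and KLF9 -0.21 to 0.24. For NuMA against input, total-count scaling gave KLF11 -0.021 and KLF9 -0.31, no filter gave KLF9 -0.055, flank scaling gave KLF7 0.25, and leaving out libraries gave KLF7 -0.71 to 0.30 and KLF9 -0.19 to 0.23. For IgG against input, total-count and flank scaling gave KLF9 -0.0042 and -0.70, and leaving out libraries gave KLF7 -0.80 to 0.43, KLF9 -0.13 to 0.33, KLF5 -1.26 to 0.52 and KLF2 -1.15 to 0.22. Relative to own inputs, flank scaling gave KLF7 0.90 and KLF9 0.96, and leaving out libraries gave KLF7 -1.001 to 0.34.

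DESeq2, total-count scaling and flank scaling gave 75.2%, 35.9% and 73.1% of passing windows as higher in NuMA than in input, against 59.1% as reported. Relative to own inputs total-count and flank scaling gave 14.5% and 97.5%, against 32.9%. Over all alternatives, windows higher in NuMA than in IgG ranged from 596 to 7562 (2640 as reported) and lower from 429 to 4162 (3761). Against input they ranged from 1246 to 3182 (2960) and 619 to 3313 (2045), relative to own inputs from 0 to 1132 (199) and 0 to 1342 (405), and for IgG against input from 0 to 334 (41) and 0 to 820 (11).

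The deviations of libraries with the same replicate number correlated at 0.172 over 15727 windows, and with 2 pairs the numbers are not taken as pairing. With a replicate block 5 KLF promoters were higher than IgG, KLF2 passing at 0.97 (edgeR adjusted p = 0.0379). The standard errors of the 9 tested KLF promoters against IgG were 0.40 to 0.58, and KLF2 at 0.91 and KLF11 at 0.83 did not pass.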

Other observations

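The nearest promoter windows on each side of the KLF windows lay 38097 to 1366485 bp away. Of these 20 neighbours 18 were tested for NuMA against IgG, of which 4 were higher and 5 lower, against 16.8% and 23.9% of all windows tested. KLF10, higher at 1.40, lies between ODF1, a sperm-tail gene, at -2.97 (edgeR adjusted p = 2.0e-05) and a window without a symbol (ENSG00000155096) at -2.47 (edgeR adjusted p = 4.6e-05). KLF3, at 1.95, lies between PTTG2 at -2.66 (edgeR adjusted p = 0.0009) and TLR10, a toll-like receptor, at -1.45, which did not pass (edgeR adjusted p = 0.0664). KLF11, at 0.83, which did not pass, lies between GRHL1 at 1.42 (edgeR adjusted p = 0.0083) and CYS1 at 1.38 (edgeR adjusted p = 0.0088), both higher. KLF13, at 1.91, has OTUD7A on one side at 1.40 (edgeR adjusted p = 0.0069) and TRPM1 on the other at 0.12 (edgeR adjusted p = 0.812).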
